A study of Homo sapiens with 6 samples.

Results

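The enzymes described here modify and crosslink collagen, and they were chosen by gene symbol: 5 lysyl oxidases (LOX, LOXL1, LOXL2, LOXL3 and LOXL4), 3 lysyl hydroxylases (PLOD1, PLOD2 and PLOD3) and 2 alpha subunits of prolyl 4-hydroxylase (P4HA1 and P4HA2). All 10 were among the 38167 genes of the count table. Cal27 is an established human tongue squamous carcinoma line. Spheroids of it were grown by liquid overlay with Matrigel, a gel of basement membrane proteins, at 12 mg/mL (stiff) or 3 mg/mL (soft), and polyadenylated RNA was sequenced on day 14 from 3 libraries per condition. Both conditions used the same line with no other agent. The stiff gel also holds more matrix protein, and stiffness and protein content cannot be told apart in this design. The comparison asks which genes differ between oral carcinoma spheroids in a stiff and in a soft matrix.

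Collagen chains are modified in the endoplasmic reticulum before they fold into triple helices. Prolyl 4-hydroxylase, built of catalytic alpha subunits and the shared beta subunit P4HB, makes the hydroxyproline that keeps the helix stable at body temperature. Lysyl hydroxylases make hydroxylysine, which carries sugars and gives stronger crosslinks. Outside the cell, lysyl oxidases, which need copper, turn lysine and hydroxylysine into aldehydes that join neighbouring collagen or elastin molecules. Several of these genes, among them LOX, LOXL2, PLOD2, P4HA1 and P4HA2, are known targets of the hypoxia-inducible factor HIF.

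Stiff replicate 2 stood apart from the other stiff libraries on the second principal component (10.8% of the variance), and without it the counts of enzymes given next were the same, 8 and 1. Of the 10 enzymes, 8 were higher and 1 was lower in stiff than in soft Matrigel at an adjusted p below 0.05 in edgeR's quasi-likelihood test, and PLOD2 did not pass. Over all 18676 genes tested, 25.3% were called higher and 23.8% lower, so 49.1% of genes were called in either direction. The median log2 fold change was 0.43 for the 10 enzymes, against -0.0002 for all genes tested. In 7 enzymes every stiff library lay above every soft library, and in 1 every stiff library lay below, where 30.3% and 29.6% of all genes did so (59.9% in either direction). Past both the threshold and a 2-fold difference, LOX, LOXL2 and P4HA1 were higher and LOXL4 was lower, against 7.6% of all genes higher and 5.62% lower. The rises of LOX, LOXL2, PLOD3, P4HA1 and P4HA2 and the fall of LOXL4 kept their call in all 15 alternatives computed for each. Those of LOXL1, LOXL3 and PLOD1 did not, and the count of enzymes that were higher was 5 with scaling by library size only and 5 without soft replicate 2. Levels are given as CPM, counts relative to a TMM-scaled library size (a scaling that assumes most genes do not change), with the SD over 3 libraries. Because Cal27 spheroids are read here in bulk, fewer cells of a type and less RNA per cell cannot be told apart.

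**Figure D1:**
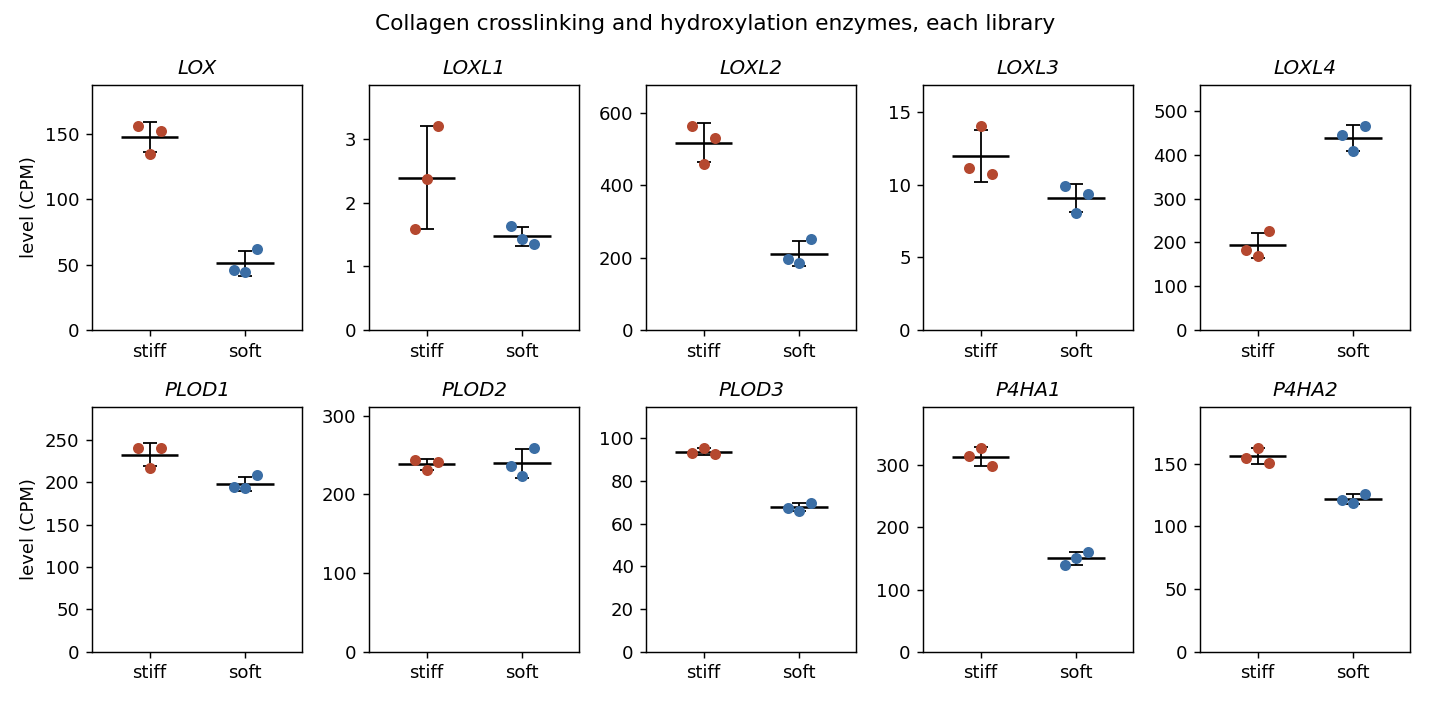
Level of each enzyme in CPM (linear axis, from 0) in the 3 stiff libraries, left, and the 3 soft libraries, right, of each panel; points are libraries, lines are means and bars are 1 SD. The stiff points of LOX, LOXL2 and P4HA1 lie well above the soft points, those of LOXL4 lie below, and those of PLOD2 overlap.

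The lysyl oxidases moved in both directions. LOX (ENSG00000113083, chromosome 5, 122063195 to 122078360), the founding enzyme of the family, had 156, 135 and 152 CPM in the 3 stiff libraries, against 45.9, 44.3 and 62.2 CPM in the 3 soft libraries. The groups were far apart, with soft replicate 3 the highest of the soft libraries. The level was 2.91-fold higher in stiff (95% interval 2.40 to 3.53, adjusted p = 7.15e-06). LOXL2 (ENSG00000134013, chromosome 8, 23297189 to 23425328), a relative with scavenger receptor domains that acts on basement membrane collagen, had 565, 458 and 532 CPM in stiff libraries, against 196, 186 and 250.5 CPM in soft libraries. Here too soft replicate 3 was the highest soft library and stiff replicate 2 the lowest stiff library, and the groups did not overlap. LOXL2 was 2.46-fold higher in stiff (interval 2.05 to 2.95, adjusted p = 1.61e-05).

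LOXL4 (ENSG00000138131, chromosome 10, 98247690 to 98268250), another member with scavenger receptor domains, went the other way. It had 184, 170.0 and 226 CPM in stiff libraries, against 445, 408 and 467 CPM in soft libraries. Every stiff library was below every soft library, and the level was 2.28-fold lower in stiff than in soft (log2 fold change -1.19 ± 0.11, SE, adjusted p = 1.32e-05). LOXL4 was the only enzyme of the 10 called lower.

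The remaining lysyl oxidases were scarce. LOXL1, which acts mainly on elastin, had 55, 85 and 116 fragments in stiff libraries, against 68, 49 and 42 in soft libraries. The counts overlap, and at 2.40 ± 0.811 CPM in stiff and 1.47 ± 0.147 CPM in soft the fold was 1.62 with an interval of 1.09 to 2.42 (adjusted p = 0.0474). The call was lost in 7 of 13 alternatives, among them DESeq2 (adjusted p = 0.0593). It was also lost without stiff replicate 3, soft replicate 1, soft replicate 2 or soft replicate 3 in turn (adjusted p = 0.2, 0.0796, 0.119 and 0.132). Over all alternatives adjusted p lay between 0.0093 and 0.229. The antisense gene LOXL1-AS1, which covers 9.21% of its exons, had 84 to 182 fragments per library, against 42 to 116 for LOXL1, so the LOXL1 count is uncertain. LOXL3 had 11.2, 14.1 and 10.8 CPM in stiff libraries, against 9.92, 8.03 and 9.36 CPM in soft libraries. It was 1.32-fold higher in stiff (interval 1.07 to 1.62, adjusted p = 0.0304). This call was lost in 6 of 15 alternatives (adjusted p 0.0115 to 0.248 over all). Those included the fits without soft replicate 2 (adjusted p = 0.128) or soft replicate 3 (adjusted p = 0.0742). The rest were scaling by library size only (adjusted p = 0.0543) and the limma fits on TPM (adjusted p 0.21 to 0.248). HTRA2, on the opposite strand, covers 14.3% of LOXL3's exons and had 1128 to 1639 fragments per library, against 274 to 502 for LOXL3, so the LOXL3 count is uncertain.

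The make-up of the family shifted toward LOXL2. To compare genes, CPM was divided by the length in kilobases of the longest coding transcript in GENCODE 29. On this scale LOXL2 held 65.2%, 62.4% and 60.9% of the summed lysyl oxidase level in stiff libraries, against 29.2%, 29.8% and 33.0% in soft libraries. LOXL4 held 20.6%, 22.5% and 25.2% in stiff libraries, against 64.2%, 63.6% and 59.8% in soft libraries. LOX held 12.5% ± 0.31 in stiff and 5.13% ± 0.506 in soft (SD, n = 3). LOXL2 was therefore the most abundant lysyl oxidase in stiff and LOXL4 in soft, with no overlap between libraries. The summed level of the family was 232 ± 21.9 CPM per kilobase in stiff and 193 ± 19.3 CPM per kilobase in soft. These totals overlapped, with stiff replicate 2 (207.1) below soft replicate 3 (213.8 CPM per kilobase). The level of LOXL2 per kilobase was 5.04 ± 0.153 times that of LOX in stiff and 5.99 ± 0.187 times in soft, without overlap (exact two-sided permutation test, p = 0.1, the smallest that 3 against 3 allows).

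**Figure D2:**
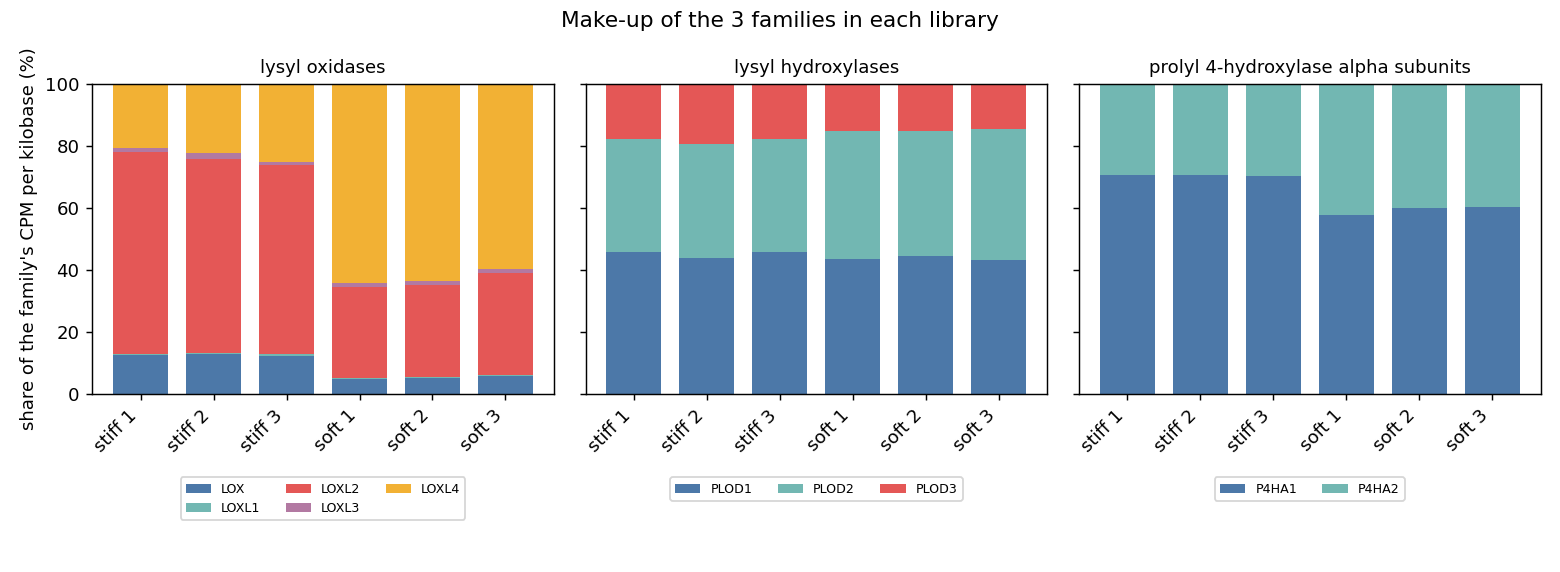
Share of each gene in its family's summed CPM per kilobase (stacked bars, percent), for the 3 stiff libraries (left) and 3 soft libraries (right) in each panel. LOXL2 takes 60.9% to 65.2% of the lysyl oxidases in stiff libraries and LOXL4 takes 59.8% to 64.2% in soft libraries, while PLOD1 is the largest part of the lysyl hydroxylases in every library.

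The TPM values deposited by the authors gave another picture of the order of these genes, because of the gene lengths behind them. The ratio of count to TPM gives the length that was divided by. Set against genes with 1 RefSeq transcript, that length was 1.06 times the longest coding transcript for LOXL2 and 0.969 times for PLOD3, each with 1 RefSeq transcript, but 4.19 times for LOXL4 with 6, 7.12 times for LOXL3 with 7 and 12.7 times for P4HA2 with 9. Across 5836 well counted genes this excess followed the number of RefSeq transcripts (Spearman's rho = 0.89, a description across genes, which are not independent). In deposited TPM, LOXL2 held 62.9% of the lysyl oxidases in soft and LOXL4 32.3%, the reverse of their order per kilobase of the longest transcript. The length of a gene was nearly the same in every library, so it does not touch the comparison of 1 gene between libraries, and TPM entered only the alternative tests.

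Of the lysyl hydroxylases, PLOD3 and PLOD1 rose and PLOD2 did not pass. PLOD3 (ENSG00000106397, chromosome 7, 101205977 to 101218420), which also adds sugars to hydroxylysine, had 93.1, 95.6 and 92.6 CPM in stiff libraries, against 67.5, 65.8 and 69.9 CPM in soft libraries. The groups were tight and apart, and PLOD3 was 1.38-fold higher in stiff (interval 1.25 to 1.53, adjusted p = 0.000214). ZNHIT1, on the opposite strand, covers 7.56% of PLOD3's exons and had 1290 to 2694 fragments per library, against 2173 to 3412 for PLOD3. PLOD1, which acts on lysines in the triple helix, had 241, 217 and 239.9 CPM in stiff libraries, against 194, 193 and 208 CPM in soft libraries. It was 1.17-fold higher in stiff (interval 1.05 to 1.31, adjusted p = 0.0205). That call was lost in 8 of 15 alternatives (adjusted p 0.000191 to 0.451 over all). Those included scaling by library size only (adjusted p = 0.0625) and the limma fits on TPM (adjusted p 0.344 to 0.451). The rest were the fits without stiff replicate 1, stiff replicate 3, soft replicate 1 or soft replicate 2 in turn (adjusted p = 0.0734, 0.0708, 0.0852 and 0.0945).

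PLOD2 (ENSG00000152952, chromosome 3, 146069440 to 146163653) hydroxylates lysines in the telopeptides, the ends of the collagen molecule from which the most stable crosslinks form. It had 243, 230.5 and 242 CPM in stiff libraries, against 236, 223 and 259.5 CPM in soft libraries. The stiff values lay within the range of the soft values, and the fold change was 0.996 with an interval of 0.890 to 1.12 (adjusted p = 0.956). A change as large as that of PLOD3 thus lies outside the interval. The shares of the family per kilobase were 45.1% ± 1.13 in stiff and 43.6% ± 0.676 in soft for PLOD1, 36.5% ± 0.179 in stiff and 41.4% ± 0.98 in soft for PLOD2, and 18.4% ± 0.957 in stiff and 15.0% ± 0.372 in soft for PLOD3 (SD, n = 3).

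Both prolyl 4-hydroxylase alpha subunits rose, P4HA1 by more. P4HA1 (ENSG00000122884, chromosome 10, 73007217 to 73096974), the main catalytic subunit in most cells, had 314, 329 and 299 CPM in stiff libraries, against 139, 150.3 and 161 CPM in soft libraries. Its lowest stiff library was well above its highest soft library, and the level was 2.09-fold higher in stiff (interval 1.86 to 2.35, adjusted p = 2.96e-06). P4HA2 (ENSG00000072682, chromosome 5, 132191838 to 132295315), the catalytic subunit of a second form of the enzyme, had 154, 163 and 150.2 CPM in stiff libraries, against 121, 119 and 126 CPM in soft libraries. These groups also did not overlap, with a 1.28-fold higher level in stiff (interval 1.16 to 1.41, adjusted p = 0.0014). Per kilobase, P4HA1 stood at 2.37 ± 0.0278 times P4HA2 in stiff and 1.45 ± 0.08 times in soft (SD, n = 3). The ratio was higher in 3 of 3 stiff libraries than in any soft library (exact two-sided permutation test, p = 0.1, the smallest that 3 against 3 allows). P4HA2-AS1, on the opposite strand, covers 6.45% of P4HA2's exons and had 308 to 572 fragments per library, against 3920 to 5807 for P4HA2.

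The beta subunit P4HB, with which the alpha subunits assemble, did not pass: it had 912 ± 33.9 CPM in stiff and 985 ± 15.4 CPM in soft (adjusted p = 0.172), and was called lower with scaling by library size only (adjusted p = 0.0468, the lowest of a range up to 0.297). Summed per kilobase, the alpha subunits P4HA1 and P4HA2 amounted to 0.448 ± 0.0367 times P4HB in stiff and 0.236 ± 0.00928 times in soft (SD, n = 3). P4HA3, the remaining alpha subunit, had 11 fragments over the 3 stiff libraries and 0 over the 3 soft libraries and was below the count filter. Of the other prolyl hydroxylation partners, CRTAP, a subunit of the prolyl 3-hydroxylase complex, rose 1.52-fold (adjusted p = 9.37e-05), the prolyl 3-hydroxylase P3H1 rose 1.31-fold (adjusted p = 0.00144) and its relative P3H2 rose 1.46-fold (adjusted p = 0.00461). The P3H2 call was lost in the 3 limma fits on TPM (adjusted p 6.95e-05 to 0.128 over all alternatives). PPIB, a proline isomerase of the same complex, had 258 ± 34.1 CPM in stiff and 266 ± 12.1 CPM in soft (adjusted p = 0.724), and was called lower without stiff replicate 2 (adjusted p = 0.0193, the lowest of a range up to 0.974). SNX22, on the opposite strand, covers 27.2% of PPIB's exons, so its count is uncertain. P3H4 had 15.1 ± 1.84 CPM in stiff and 13.2 ± 0.64 CPM in soft (adjusted p = 0.17), and P3H3 had 5 fragments over the stiff libraries and 2 over the soft libraries. Thus 3 of 6 tested partners rose and 0 fell, against 25.3% higher and 23.8% lower over all genes.

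**Figure D3:**
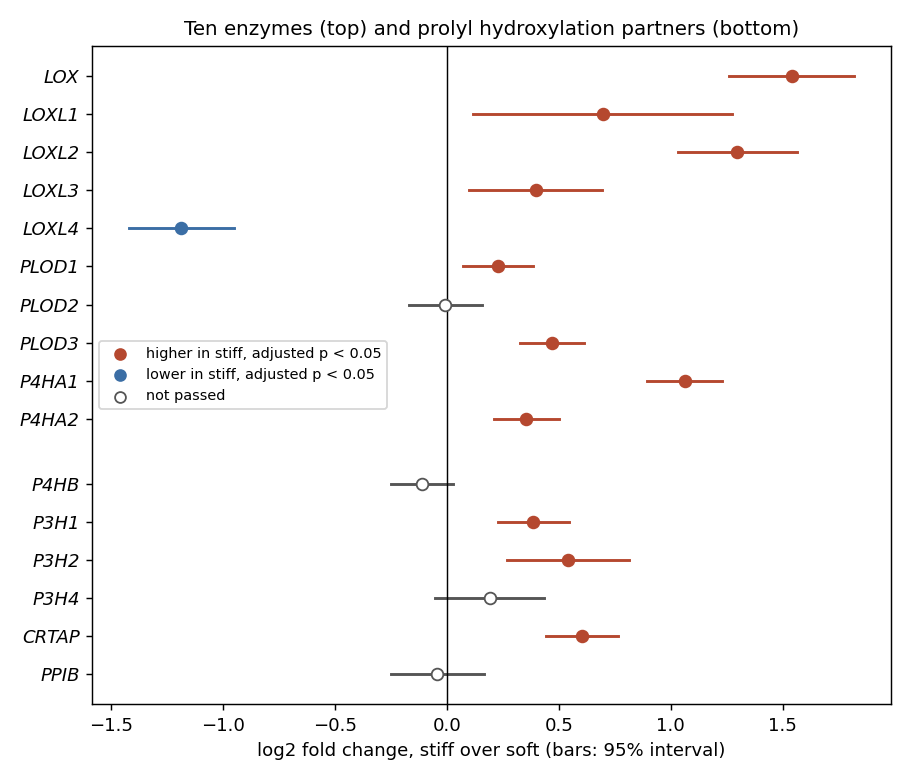
Log2 fold change, stiff over soft, of the 10 enzymes (top) and of the tested prolyl hydroxylation partners (bottom); points are edgeR estimates, bars are 95% intervals and open points did not pass an adjusted p of 0.05. LOX is highest at 1.54, LOXL4 lowest at -1.19, and the intervals of PLOD2, P4HB, P3H4 and PPIB include 0.

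Ordered by level per kilobase, stiff libraries ran LOXL2 (146 ± 15.4), P4HA1 (110.3 ± 5.25), PLOD1 (79.1 ± 4.62), PLOD2 (63.9 ± 1.86), LOXL4 (52.9 ± 8.01), P4HA2 (46.5 ± 1.9), PLOD3 (32.1 ± 0.564), LOX (28.9 ± 2.25), LOXL3 (3.43 ± 0.516) and LOXL1 (1.02 ± 0.345 CPM per kilobase, SD, n = 3). The libraries of PLOD2 and LOXL4, and those of LOXL4 and P4HA2, overlapped. Soft libraries began with LOXL4 (120.4 ± 8.14 CPM per kilobase), which stood apart, and PLOD1, PLOD2, LOXL2 and P4HA1 followed between 67.5 and 52.8 CPM per kilobase, each overlapping the next. The last 5 places, P4HA2, PLOD3, LOX, LOXL3 and LOXL1, came in the same order in both conditions.

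Promoter sequences were read for 9 of the enzymes from RefSeq (GRCh38.p14, 250 bases before to 50 after the annotated start, given 5′ to 3′ on the gene's strand), and the core of the hypoxia response element was searched because several of these enzymes are known HIF targets. The letters searched were ACGTG and GCGTG on both strands, with overlapping matches counted separately, and 48.4% of all 35116 promoter windows held at least 1. The windows shown are those of the enzyme with the largest rise (LOX), the subunit with the smallest p (P4HA1), the enzyme that did not pass (PLOD2) and the one that fell (LOXL4), with each match in capitals.
LOX, chr5:122078210-122078509, minus strand: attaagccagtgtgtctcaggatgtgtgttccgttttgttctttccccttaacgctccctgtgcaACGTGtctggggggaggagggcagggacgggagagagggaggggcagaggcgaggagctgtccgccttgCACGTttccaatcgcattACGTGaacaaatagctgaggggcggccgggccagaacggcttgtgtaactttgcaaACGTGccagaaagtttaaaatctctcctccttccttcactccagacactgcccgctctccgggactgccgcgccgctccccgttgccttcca
P4HA1, chr10:73096817-73097116, minus strand: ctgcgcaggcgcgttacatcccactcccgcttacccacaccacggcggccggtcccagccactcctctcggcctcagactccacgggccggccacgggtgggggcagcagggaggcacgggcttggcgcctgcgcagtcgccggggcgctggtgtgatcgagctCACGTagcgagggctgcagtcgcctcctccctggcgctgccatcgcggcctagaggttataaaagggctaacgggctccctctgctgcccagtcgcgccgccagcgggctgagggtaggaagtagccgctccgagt
PLOD2, chr3:146161135-146161434, minus strand: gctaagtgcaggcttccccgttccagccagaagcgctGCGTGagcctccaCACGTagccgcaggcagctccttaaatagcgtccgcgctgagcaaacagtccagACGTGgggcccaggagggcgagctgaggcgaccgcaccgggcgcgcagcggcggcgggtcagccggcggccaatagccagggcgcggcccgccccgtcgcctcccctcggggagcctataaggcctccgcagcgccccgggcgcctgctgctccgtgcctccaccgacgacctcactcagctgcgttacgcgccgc
LOXL4, chr10:98268145-98268444, minus strand: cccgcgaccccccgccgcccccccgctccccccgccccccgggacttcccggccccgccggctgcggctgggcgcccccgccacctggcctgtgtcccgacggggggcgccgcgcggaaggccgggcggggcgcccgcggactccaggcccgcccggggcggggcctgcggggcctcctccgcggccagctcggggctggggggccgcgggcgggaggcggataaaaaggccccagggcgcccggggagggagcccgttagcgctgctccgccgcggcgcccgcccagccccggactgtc
RefSeq gives 3 LOX windows, for different starts. The one shown held 4 matches, at -185, -116, -98 and -42 from the start, and is the one with the most; the other LOX windows, chr5:122077174-122077473 and chr5:122077125-122077424, overlap each other and held 2 each. The P4HA1 window held 1 match at -86, and the PLOD2 window held 3, while the LOXL4 window held 0. Whether the number of matches goes with the response to stiff Matrigel was not tested. LOXL2, which rose 2.46-fold, is the enzyme for which no window was read. The windows of P4HA2, PLOD3 and LOXL1 held 0, that of PLOD1 held 2, and of the 2 LOXL3 windows 1 held a match. In all, 5 of the 9 enzymes held a match in some window, near the 48.4% of all windows. LOX and LOXL3 had more than 1 window each. LOXL4's window was 85.3% G and C, against a median of 58.7% over all windows. P4HA1's window held a TATA box (TATAAA on the gene's strand, in 7.33% of all windows). A match is a description of letters and not of a bound site.

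Collagens are the substrates of these enzymes. Of 12 tested non-fibrillar collagen genes, 11 rose and 0 fell (median log2 fold change 1.04), against 25.3% higher and 23.8% lower over all genes. COL7A1, the collagen of anchoring fibrils, rose 3.998-fold to 547 ± 26.5 CPM in stiff, against 137 ± 12.4 CPM in soft (SD, n = 3, adjusted p = 1.82e-07). The type VI chains COL6A2 and COL6A1 rose 2.58-fold and 2.28-fold (adjusted p = 2.89e-06 and 3.57e-06), and the basement membrane chain COL4A2 rose 2.51-fold (adjusted p = 3.05e-05). COL17A1, a hemidesmosome collagen named after its values were seen, had 1904 ± 300.3 CPM in stiff and 909 ± 104 CPM in soft (adjusted p = 6.83e-05). Of 8 tested fibrillar collagens, 3 rose and 0 fell (median 0.26), set against the same shares of all genes. COL5A3 rose 16.6-fold but was low, with 302 fragments over the stiff libraries and 18 over the soft libraries (adjusted p = 9.14e-06). COL27A1 rose 1.56-fold (adjusted p = 0.000463), but did not pass in the limma fit on unfiltered TPM (adjusted p 1.21e-10 to 0.0694 over all alternatives). COL1A1 rose 1.15-fold to 82.6 ± 3.41 CPM in stiff, against 71.8 ± 4.66 CPM in soft (adjusted p = 0.0432), a call lost in 11 of 15 alternatives, among them DESeq2 and the omission of any single library other than stiff replicate 2 (adjusted p 0.0025 to 0.522 over all). COL1A2, its partner chain, named after its values were seen, had 1.70 ± 0.23 CPM in stiff and 1.74 ± 0.276 CPM in soft (adjusted p = 0.91). COL5A1, named after its values were seen, had 286 ± 58 CPM in stiff and 231 ± 25 CPM in soft (adjusted p = 0.0935), and was called higher in 3 of 15 alternatives, among them the fit without stiff replicate 2 (adjusted p 1.43e-05 to 0.565 over all alternatives).

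Elastin, the other substrate of lysyl oxidases, was almost absent, with 5 fragments over the stiff libraries and 9 over the soft libraries for ELN. Of 12 tested elastic fibre genes, 8 rose and 2 fell (median log2 fold change 0.55), against 25.3% higher and 23.8% lower over all genes. EFEMP2 (fibulin-4), which brings LOX and elastin together, rose 3.39-fold to 19.2 ± 0.437 CPM in stiff, against 5.71 ± 1.43 CPM in soft (SD, n = 3, adjusted p = 1.53e-05). EFEMP1 (fibulin-3) rose 3.11-fold (adjusted p = 3.24e-07), the fibrillin FBN2 rose 2.36-fold (adjusted p = 0.000526) and LTBP1, which tethers latent TGF-beta, rose 2.19-fold (adjusted p = 7.89e-05). The LTBP1 call was lost with limma on unfiltered TPM (adjusted p 3.52e-14 to 0.0606 over all alternatives). Those that fell, chosen after seeing their values, were FBLN5, with 97 fragments in stiff and 213 in soft (adjusted p = 0.00601), and LTBP3, at 89.7 CPM in stiff and 115 CPM in soft (adjusted p = 0.00878).

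Procollagen is folded and exported by its own chaperones and receptors. Of 8 tested chaperone and export genes, 4 fell and 1 rose (median log2 fold change -0.35), against 23.8% and 25.3% of all genes. MIA2, a cargo receptor partner at exit sites of the endoplasmic reticulum, fell to 57.6 ± 2.53 CPM in stiff, against 140.5 ± 4.44 CPM in soft (SD, n = 3), a 2.44-fold lower level (adjusted p = 5.91e-07). MIA3 (TANGO1), which loads collagen for export, was 1.33-fold lower (adjusted p = 0.00352). CREB3L1, a transcription factor of collagen secretion, was 4.14-fold lower but scarce, with 17 fragments in stiff and 72 in soft (adjusted p = 0.00332). FKBP14, named after its values were seen, was 1.23-fold lower (adjusted p = 0.0172). That call was lost in 3 of 15 alternatives, among them the fits without soft replicate 1 or soft replicate 3 (adjusted p 0.0029 to 0.0711 over all). TMEM38B, an ion channel of the endoplasmic reticulum, rose 1.25-fold (adjusted p = 0.00764), which missed the threshold in 1 limma fit on TPM (adjusted p 0.00275 to 0.0539 over all alternatives). The collagen chaperone SERPINH1 (HSP47), also named after its values were seen, had 190.1 ± 7 CPM in stiff and 201 ± 4.1 CPM in soft (adjusted p = 0.296), and was called lower in the 3 limma fits on TPM (adjusted p 0.0207 to 0.524 over all alternatives). The galactosyltransferase COLGALT1, the tested glycosyltransferase, had 205 ± 17.1 CPM in stiff and 185 ± 4.05 CPM in soft (adjusted p = 0.126), and was called higher without stiff replicate 2 (adjusted p = 0.00136, the lowest of a range up to 0.846).

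**Figure D4:**
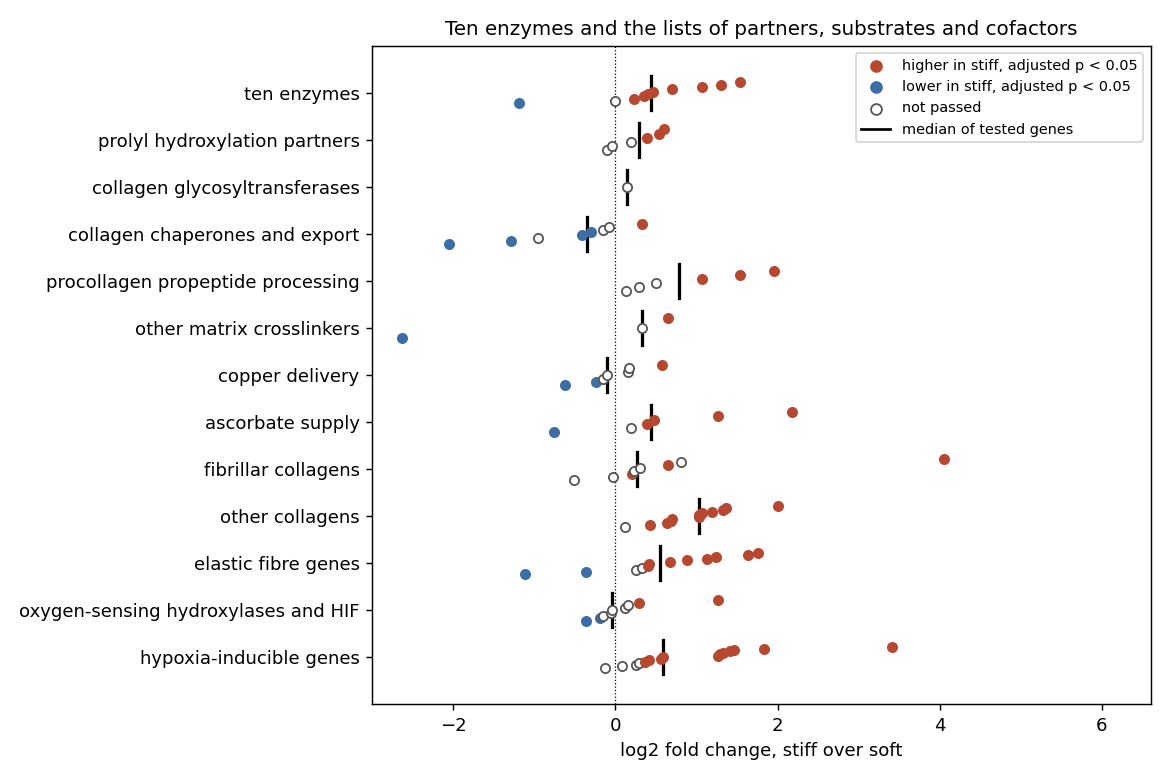
Log2 fold change, stiff over soft, of the tested genes of the 10 enzymes and of each list of partners, substrates, cofactors and hypoxia genes; filled points passed an adjusted p of 0.05, open points did not, and black lines are medians. Non-fibrillar collagens sit highest, with a median of 1.04, and the chaperone and export genes lowest, with a median of -0.35.

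Of 6 tested genes of propeptide processing, 3 rose and 0 fell (median log2 fold change 0.79), against 25.3% and 23.8% of all genes. TLL2, a tolloid-like protease, rose 3.86-fold to 14.0 ± 0.692 CPM in stiff, against 3.62 ± 0.25 CPM in soft (SD, n = 3, adjusted p = 8.1e-07). The procollagen protease gene ADAMTS3 rose 2.90-fold (adjusted p = 0.00047), and the enhancer of BMP1 PCOLCE rose 2.10-fold (adjusted p = 0.000368), with an uncertain count because PCOLCE-AS1 covers 16.6% of its exons. BMP1, which cuts procollagen C-propeptides and also activates LOX, was named after its values were seen. It had 150.4 ± 11.3 CPM in stiff and 137 ± 6.76 CPM in soft (adjusted p = 0.166), and was called higher without stiff replicate 2 (adjusted p = 0.00488, the lowest of a range up to 0.912). Among 3 other crosslinkers, the transglutaminase TGM2 rose 1.56-fold to 266 ± 31.4 CPM in stiff, against 170.1 ± 19.7 CPM in soft (adjusted p = 0.00065), but did not pass in the limma fit on unfiltered TPM (adjusted p 1.05e-10 to 0.0526 over all alternatives). The peroxidasin PXDN, which joins type IV collagen, fell, with 10 fragments in stiff and 65 in soft (adjusted p = 0.0014).

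Lysyl oxidases need copper and the hydroxylases need ascorbate. Of 7 genes in the copper delivery list, 1 rose and 2 fell (median log2 fold change -0.10). Over all genes, 25.3% were higher and 23.8% lower. The copper chaperone ATOX1 rose 1.49-fold (adjusted p = 0.00273). G3BP1, on the opposite strand, covers 2.48% of ATOX1's exons and had 8096 to 11024 fragments per library, against 471 to 986 for ATOX1. ATP7A, the pump that loads lysyl oxidases with copper in the Golgi, was 1.54-fold lower (adjusted p = 0.00391). It had 7.96 ± 1.29 CPM in stiff and 12.2 ± 1.16 CPM in soft (SD, n = 3). PGK1, on the same strand, covers 0.888% of ATP7A's exons and had 25149 to 36653 fragments per library, against 231 to 550 for ATP7A. SLC33A1 was 1.18-fold lower (adjusted p = 0.00847), with an uncertain count because the overlapping gene AC104472.3 covers 21.1% of its exons. SLC33A1 is counted in the copper list but carries acetyl-CoA and not copper. Without it, ATP7A was the only gene of the list that fell. Of 6 ascorbate genes, 4 rose and 1 fell (median 0.43). SLC2A1, a glucose transporter that also carries oxidised ascorbate, rose 2.40-fold (adjusted p = 1.11e-06) and the reductase CYB5R3 rose 1.39-fold (adjusted p = 0.00021). SLC2A3 rose 4.51-fold, with 64 fragments in stiff and 14 in soft (adjusted p = 0.00415). GSTO1, named after its values were seen, rose 1.31-fold (adjusted p = 0.0214). That call was lost in 5 of 15 alternatives, among them the fits without soft replicate 1 or soft replicate 3 (adjusted p 0.000478 to 0.105 over all). The ascorbate transporter SLC23A2 was 1.70-fold lower (adjusted p = 0.00325).

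The oxygen-sensing hydroxylases, which use the same cofactors as the collagen hydroxylases but act on HIF, were listed together with HIF itself. Of 9 tested genes of this list, 2 rose and 2 fell (median log2 fold change -0.04), shares near the 25.3% higher and 23.8% lower of all genes. EGLN3, itself hypoxia-inducible, rose 2.40-fold to 533 ± 55 CPM in stiff, against 222 ± 15.8 CPM in soft (SD, n = 3, adjusted p = 3.02e-06), and EGLN1 was 1.29-fold lower (adjusted p = 0.00307). EPAS1, a HIF subunit and not a hydroxylase, was 1.23-fold higher (adjusted p = 0.0208) and HIF1AN 1.15-fold lower (adjusted p = 0.0457). The EPAS1 call was lost in 8 of 15 alternatives (adjusted p 1.71e-05 to 0.44 over all). Among them were the fits without stiff replicate 1, stiff replicate 3, soft replicate 2 or soft replicate 3 in turn. The HIF1AN call was lost in 9 of 15 alternatives (adjusted p 0.0168 to 0.165 over all). Among them were the fits without any single library other than stiff replicate 2 (adjusted p between 0.0567 and 0.165). HIF1A, named after its values were seen, did not pass (adjusted p = 0.701). Of 15 hypoxia-inducible genes, 11 rose and 0 fell (median 0.59). CA12 rose 10.6-fold, ANGPTL4 3.55-fold, NDRG1 2.77-fold and PFKFB4 2.67-fold (adjusted p = 6.49e-07, 1.65e-05, 1.4e-06 and 5.98e-06), while VEGFA, named after its values were seen, had 456 ± 30.9 CPM in stiff and 499.8 ± 29.3 CPM in soft (adjusted p = 0.175), and was called lower without stiff replicate 2 (adjusted p = 0.0334, the lowest of a range up to 0.495). Over all 110 genes of these lists, each counted once, 92 were tested, 47 rose and 12 fell. Over all genes tested, 25.3% rose and 23.8% fell.

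Libraries held 35292340 to 36594685 counted fragments in stiff and 30656278 to 40583044 in soft. The squamous epithelial markers KRT5, KRT14, KRT17 and TP63 were abundant in both conditions and were called higher in stiff. Of 10 squamous markers, 7 rose and 2 fell, against 25.3% higher and 23.8% lower over all genes. Those that fell were EPCAM (log2 fold change -0.33, adjusted p = 0.011) and CDH1 (-0.44, adjusted p = 0.0019), and DSG3 did not pass. The labels call the replicates biological without saying what sets them apart, so p-values reflect only the spread seen between libraries. Of 10 fibroblast markers, 5 were tested and 3 rose, among them LUM, and their summed level was 107 to 114 CPM in stiff libraries and 78.7 to 85.2 CPM in soft libraries. Most of that sum was COL1A1, while THY1 had 0 fragments and COL3A1 had 2 fragments in stiff and 1 in soft. Of 8 macrophage markers, 3 were tested, of which 2 rose and 1 fell. CD68 was the most abundant, and AIF1 and C1QB had 0 fragments. The 8 markers summed to 132 to 146 CPM in stiff libraries and 104 to 111 CPM in soft libraries. Of 8 endothelial markers, 3 were tested, of which 1 rose and 1 fell. VWF was the most abundant in stiff and CDH5 in soft. The 8 markers summed to 3.90 to 5.18 CPM in stiff libraries and 11.1 to 14.0 CPM in soft libraries. Both conditions used the Cal27 line with no other agent, so fibroblasts, macrophages and endothelial cells were not part of the design. Which cells these marker counts came from was not tested.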

How the data were processed

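Per the labels' protocols, polyadenylated RNA was used for directional paired-end libraries. The submitters' processing notes name STAR 2.6.1e, featureCounts 1.6.2 and hg38, and for quality control and trimming cutadapt 1.9.1, Trim Galore 0.4.2 and FastQC 0.11.7. Which annotation and strand setting served is not given in the sources used here. As files, the authors deposited whole counts per gene symbol, not normalized, and TPM rounded to 1 decimal. TALAM1, antisense to MALAT1, had 92.7% to 94.3% of its count, so genes that overlap on either strand were treated as not told apart; overlaps and positions come from GENCODE 29 (GRCh38).

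Stiff was compared with soft by edgeR 4.0.16 (quasi-likelihood F test, TMM, default filter, no covariate) in R 4.3.3, with Benjamini-Hochberg adjustment over the 18676 genes tested. SE and 95% intervals were derived from the F statistic. Same-numbered libraries were not paired by the labels. Alternatives were DESeq2 1.42.0, other scalings and filters, limma 3.58.1 on log2(TPM + 1) and log2(TPM + 0.1), a replicate block, a threshold of 0.01 and each library left out. In simulated counts with 200 changed genes, 84% of 2-fold rises, 64% of 1.5-fold rises and 72% of falls to 0.5-fold were recovered. Of the calls, 3.03% were false. The simulation had few changed genes and no library that stood apart, whereas 49.1% of the real genes were called. Its rates were not tested under such conditions. Libraries of 1 condition differed by more than counting noise (chi-square over its degrees of freedom at least 3.41). That value was 33.9 and 33.4 for the pairs with stiff replicate 2. It was 3.41 for stiff replicates 1 and 3, and 6 to 7.54 for the soft pairs.

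Members and lists were chosen with earlier results of these data known. From each list up to 4 called genes with the largest fold change are named, and all prolyl hydroxylation partners; other names were chosen after their values were seen and are marked so.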

Additional observations from a re-analysis of the deposited data

How the results depend on the processing

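Across 148 alternative fits of the 10 enzymes, 125 kept direction and call, 21 lost the call with the same direction, and 2 changed sign, both for PLOD2, which has no call. The 6 enzymes whose call held throughout were LOX (log2 fold change 1.38 to 1.70), LOXL2 (1.19 to 1.43), P4HA1 (0.94 to 1.11), P4HA2 (0.23 to 0.38), PLOD3 (0.35 to 0.49) and LOXL4 (-1.31 to -1.10). The count of enzymes higher in stiff was 8; it was 5 with scaling by library size only, 5 with limma on log2(TPM + 1) with or without the filter on low values, 5 on log2(TPM + 0.1) and 5 at an adjusted p below 0.01, and lay between 5 and 8 with each library left out; the cause was not tested. LOXL1 gave no value in the filtered TPM fits. With the replicate block the counts were 8 higher and 1 lower among the enzymes, and 50 and 12 among partner genes. The block gave 10206 calls over all genes, against 9171 without it, and COL5A1 was called higher (adjusted p = 0.00406). Deviations of same-numbered libraries correlated at 0.0733, 0.216 and 0.05, and those of different-numbered libraries at -0.164 to 0.093. These values do not settle whether the numbers mark pairs. The labels do not pair them, so the main fit used no block. With library size only, 44.7% of all calls were higher, against 51.5% with TMM; limma on log2(TPM + 0.1) moved the median of all genes to -0.11 and gave 41.6%. With each library left out, the log2 fold change of genes without a call crossed 0 for PLOD2 (-0.0611 to 0.0499), PPIB (-0.1568 to 0.0199), COL1A2 (-0.1381 to 0.0922) and HIF1A (-0.1191 to 0.0628). Of 55 other named genes, 35 kept direction and call in every alternative. LOXL1, at 42 to 116 fragments per library, is the enzyme that depth limits most.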
